A study of Arabidopsis thaliana with 21 samples.

Results

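The 5 nuclear genes described here encode subunits of the thylakoid membrane complexes and were measured in all groups of a red light experiment in Arabidopsis thaliana. They belong to photosystem I (PSAE-1, AT4G28750, and PSAN, AT5G64040), to photosystem II (PSBW, AT2G30570, and PSBY, AT1G67740) and to the chloroplast ATP synthase (ATPC1, AT4G04640). The members are the probe sets that the array's annotation gives to these genes alone, 1 for each gene, so that 5 of 13356 named genes and 5 of 22746 tested probe sets are members. The arrays were 1-colour Affymetrix arrays of etiolated seedlings of ecotype Col-0, with 3 biological replicates in each of 7 groups. All groups shared 4 days of cold, 3 h of white light to start germination and 4 days of darkness at 21 °C. The pif3 mutant, whose allele is not given in the sources used here, was collected at the end of that darkness (pif3_D0) and after 1 h more (pif3_D1). The red light groups were wild type, given 1 h (WT_R1) or 18 h (WT_R18) of continuous red light after the dark growth. Wild-type controls were collected at the end of the darkness (WT_D0) and after 1 h (WT_D1) or 18 h (WT_D18) more of it. Since the annotation used here names no probe set of PIF3, the arrays gave no check of the mutation.

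Photosystem II splits water and passes electrons through the cytochrome b6f complex and plastocyanin to photosystem I, which reduces ferredoxin. The proton gradient built on the way drives the chloroplast ATP synthase. Each complex joins subunits made in the plastid with subunits encoded in the nucleus and imported. Dark-grown seedlings hold etioplasts without working photosystems, and light seen by phytochrome starts the change to chloroplasts. PIF3 is a phytochrome-interacting transcription factor that acts in darkness to keep light responses low.

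All values are quantile-normalized intensities in array units, and each probe set has its own brightness, so that levels are compared between groups and never between genes. A log2 change is on the scale of log2(intensity + 16) from limma fitted to all arrays, two-sided, and a gene was called at a Benjamini-Hochberg adjusted p under 0.05 over all 22746 probe sets. The arrays had no common scale as deposited, with medians of 36.13 to 102.9. For GAPDH, the ratio of 3' to 5' control signal lay between 1.3 and 1.94. The normalized 25S rRNA control signal differed between groups, at 4289 to 5410 in the 6 pif3 arrays and 127.9 to 465.8 in the 3 WT_R1 arrays. It ran from 2650 to 3423 in WT_R18 and from 365.2 to 4927 in the 9 wild-type dark arrays. The tissue label could not be checked with the 8 light-grown and 4 etiolated marker genes chosen for it, none of which had a named probe set. Of 7 root markers 3 were measured, and PYK10, an abundant root and hypocotyl beta-glucosidase, had group means of 6024 to 6905 units. EXPA7 and EXPA18, expansins of root hairs, had group means of 21.39 to 71.65 units. Of 10 seed storage genes only PAP85, a vicilin-like storage protein, was measured.

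**Figure D1:**
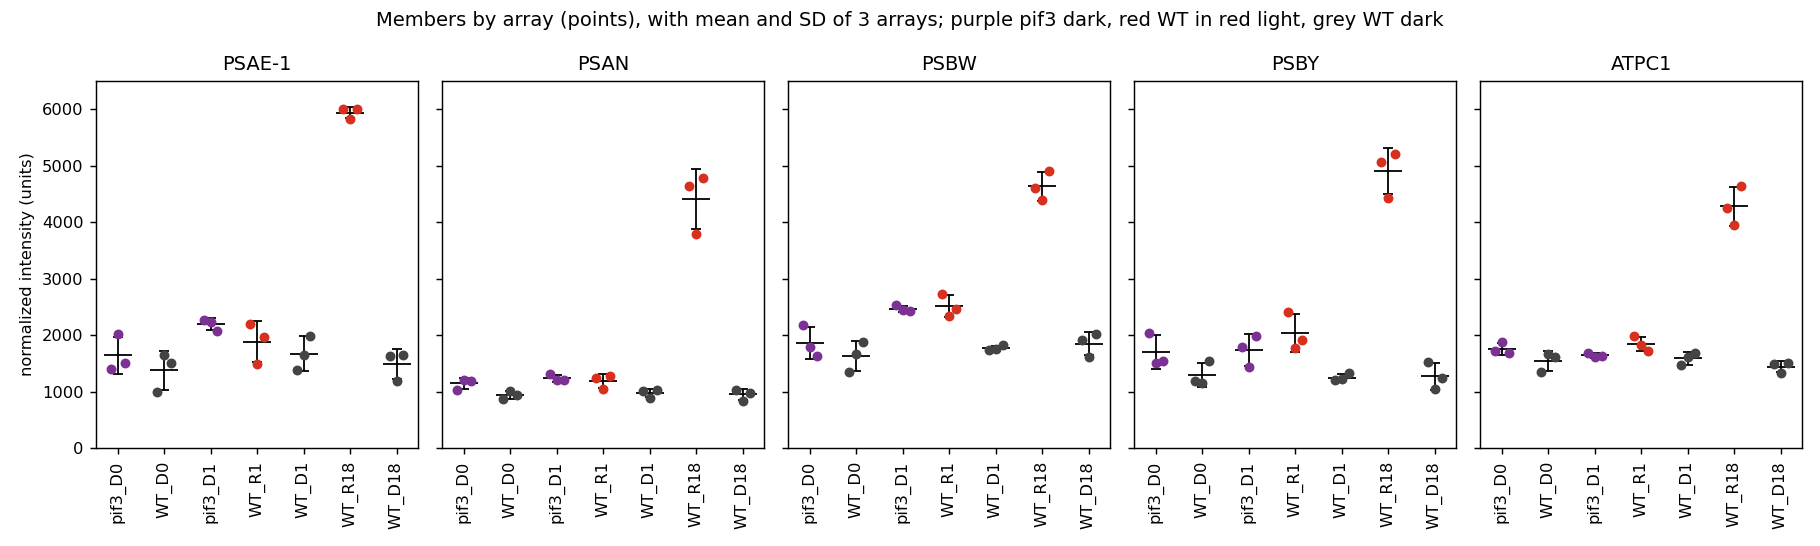
Normalized intensity (array units, linear axis from 0) of the 5 genes on each of the 21 arrays, with points for arrays and bars for the mean and SD of 3 arrays. In every panel the 3 WT_R18 arrays stand above all others, at 3798 units or more, while the other groups lie within 839 to 2731 units.

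After 18 h of red light all 5 genes rose, by 2.50-fold to 4.57-fold over seedlings kept 18 h longer in darkness. All 5 were called, against 34.4% of probe sets called in either direction and 14.1% called higher. For each gene the 3 red light arrays lay above the 3 dark arrays, as they did for 19.6% of all probe sets. The median log2 change of the 5 was 1.95, beside -0.04 over all probe sets. Seedlings were measured as bulk samples, so more RNA per green cell and more such cells cannot be told apart.

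The photosystem I genes had the largest point estimates of change. PSAN encodes a subunit on the lumen side, where plastocyanin docks. Its intensity was 4648, 3798 and 4776 units in WT_R18, against 1038, 839.0 and 978.5 units in WT_D18. Replicate 2 was lowest in both groups, and the gap between the groups was many times their spread. The log2 change was 2.19 (SE 0.11, limma adjusted p = 5.8e-10). PSAE-1 encodes a subunit on the stromal side that takes part in ferredoxin docking. It had 5999, 5826 and 5999 units in WT_R18, against 1626, 1189 and 1649 units in WT_D18. Equal values in replicates 1 and 3 of WT_R18 mean that the probe set held the same rank on both arrays, since quantile normalization gives each rank 1 value. Its log2 change was 2.0 (SE 0.20, adjusted p = 1.1e-06).

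Both photosystem II genes were called as well. PSBY encodes a precursor of small membrane-spanning subunits of photosystem II. It was measured at 5071, 4438 and 5215 units in WT_R18, against 1519, 1054 and 1246 units in WT_D18, again with replicate 2 lowest in both groups. The log2 change was 1.95 (SE 0.17, adjusted p = 2.1e-07). PSBW encodes a small subunit that helps hold photosystem II and its antenna in supercomplexes. Its values were 4615, 4386 and 4902 units in WT_R18, against 1910, 1621 and 2016 units in WT_D18. At 1.32 (SE 0.12, adjusted p = 2.8e-07), its log2 change was the smallest of the 5.

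ATPC1 encodes the gamma subunit, the turning shaft of the ATP synthase, whose redox state sets the enzyme's activity in light and darkness. It stood at 4245, 3955 and 4648 units in WT_R18, against 1483, 1338 and 1511 units in WT_D18. The spread within each group was small beside the gap, and the log2 change was 1.56 (SE 0.09, adjusted p = 2.3e-09).

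The 5 genes kept their call at 18 h in each of the 15 other fits of this comparison, with adjusted p up to 0.0016. Their log2 changes there ran from 1.23 for PSBW to 2.34 for PSAN. Other measures moved with this comparison. PAP85 fell by 3.75 on the log2 scale (adjusted p = 1.1e-07), the GAPDH 3' to 5' ratio was 1.3 to 1.39 in WT_R18 against 1.44 to 1.5 in WT_D18, and the part of either in the gene changes was not tested. The summed root marker signal, nearly all of it from PYK10, was 6403 to 7149 units in WT_R18 and 5945 to 6330 units in WT_D18. PYK10 had a log2 change of 0.14 (adjusted p = 0.049), and EXPA7 and EXPA18 were not called.

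Whether the genes changed by unequal amounts was tested on the difference between 2 genes on the same array. The differences did not overlap between WT_R18 and WT_D18 for 8 of the 10 pairs. PSAN changed by 0.87 more than PSBW and by 0.63 more than ATPC1 on the log2 scale. PSAE-1 and PSBY changed by 0.68 and 0.62 more than PSBW. Each of these had an exact permutation p of 0.1 (two-sided, n = 3 each), the smallest that 3 against 3 arrays allow, and 0.125 after adjustment over the 10 pairs, so no pair could pass the threshold. PSAE-1 and PSBY differed by 0.06 (exact permutation p = 0.6), less than the spread between arrays.

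After 1 h of red light the photosystem II genes PSBY and PSBW had risen, by 1.61-fold and 1.41-fold, and the other 3 were not called. The 2 calls among 5 genes stand beside 4.94% of probe sets called in either direction and 2.78% called higher. All red light arrays lay above all dark arrays for 4 of the 5 genes, and for 8.45% of all probe sets. The median log2 change of the 5 genes was 0.28, beside -0.02 over all probe sets.

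PSBY had 2413, 1781 and 1912 units in WT_R1, against 1202, 1224 and 1329 units in WT_D1. Replicate 1 was highest in red light, and the lowest red array was above the highest dark one. The log2 change was 0.68 (SE 0.17, adjusted p = 0.024). PSBW was at 2731, 2349 and 2466 units in WT_R1, against 1736, 1763 and 1823 units in WT_D1, with a log2 change of 0.50 (SE 0.12, adjusted p = 0.018). Here too the groups stood apart, with a dark group of very narrow spread.

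The photosystem I and ATP synthase genes were not called at 1 h. PSAN had 1244, 1055 and 1275 units in WT_R1, against 1020.15, 896.9 and 1022 units in WT_D1 (log2 change 0.28, 95% interval 0.05 to 0.50, adjusted p = 0.2). ATPC1 had 1980.3, 1830 and 1728 units in WT_R1, against 1466, 1623 and 1691 units in WT_D1 (0.21, interval 0.03 to 0.40, adjusted p = 0.25). For these genes the groups did not overlap, but the changes did not pass the test after adjustment. PSAE-1 was at 2203, 1489 and 1967 units in WT_R1, against 1383, 1658 and 1988 units in WT_D1, so that the groups overlapped (0.17, interval -0.26 to 0.59, adjusted p = 0.83).

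The 1 h calls depended on single arrays. PSBW had an adjusted p of 0.067 without WT_D1 replicate 1, 0.059 without WT_D1 replicate 2 and 0.083 without WT_R1 replicate 1. For PSBY the same fits gave 0.087, 0.077 and 0.11. A covariate for 25S rRNA was also fitted, its signal being low in WT_D1 replicate 2 and the 3 WT_R1 arrays. The log2 changes were then 0.55 for PSBW (adjusted p = 0.12) and 0.52 for PSBY (adjusted p = 0.35). PSBY changed by 0.52 more than PSAE-1, 0.41 more than PSAN, 0.47 more than ATPC1 and 0.19 more than PSBW on the log2 scale. For each of these pairs the differences did not overlap between WT_R1 and WT_D1. The exact permutation p was 0.1 for each (n = 3 each) and 0.2 after adjustment over 10 pairs. PSBW differed from ATPC1 by 0.29 in the same way, but its differences from PSAN (0.22, exact permutation p = 0.2) and from PSAE-1 (0.33, exact permutation p = 0.3) overlapped between WT_R1 and WT_D1.

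**Figure D2:**
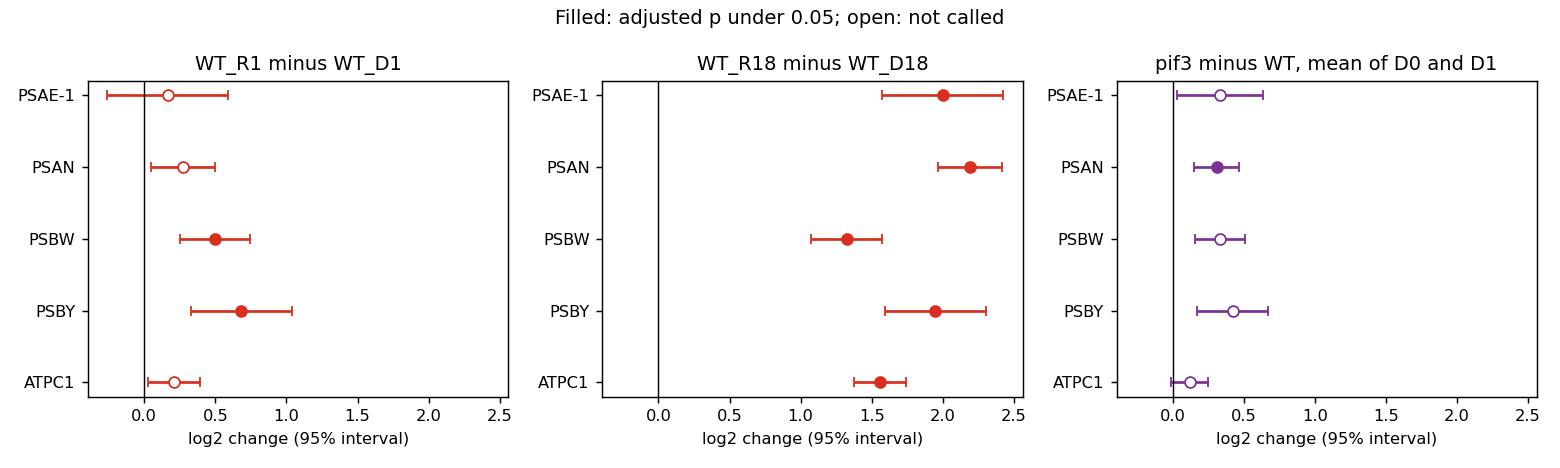
Log2 change of each gene (points) with its 95% interval (bars) for red light against darkness at 1 h and 18 h and for pif3 against wild type in darkness; filled points passed an adjusted p of 0.05. At 18 h all 5 lie between 1.32 and 2.19, while at 1 h PSBW and PSBY and in pif3 PSAN are the filled points.

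The change with red light was larger at 18 h than at 1 h for all 5 genes, by the contrast of the 2 differences. All 5 were called, against 18.8% of probe sets in either direction and 9.29% higher. The difference was 1.91 for PSAN (SE 0.15, limma adjusted p = 7.5e-07), 1.84 for PSAE-1 (SE 0.28) and 1.35 for ATPC1 (SE 0.12). It was smaller for PSBY, at 1.26 (SE 0.24), and for PSBW, at 0.83 (SE 0.16, adjusted p = 0.0021). The log2 change seen at 1 h amounted to 37.6% of that at 18 h for PSBW and 35.1% for PSBY, and to 13.5% for ATPC1, 12.6% for PSAN and 8.27% for PSAE-1. The last 3 shares rest on changes at 1 h that were not called. That of PSAE-1, 0.17, was 0.0359 without WT_D1 replicate 1, 0.045 without WT_R1 replicate 1, 0.30 without WT_D1 replicate 3 and 0.33 without WT_R1 replicate 2, so its share is poorly determined. With no scaling between arrays the differences of PSBW and PSBY were larger, at 1.09 and 1.55, but lost their calls (adjusted p = 0.21 and 0.093). Compared directly, WT_R18 was above WT_R1 for all 5 genes, by 0.88 for PSBW to 1.87 for PSAN on the log2 scale, all called, where 26.3% of probe sets were called in either direction and 11.9% higher. The 25S rRNA signal was low in WT_R1 and high in WT_R18, and with it as a covariate all 5 genes were called in both contrasts.

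Darkness alone gave no call among the 5 genes. From 1 h to 18 h more of darkness, the log2 changes ran from -0.17 for PSAE-1 to 0.05 for PSBW in WT_D18 against WT_D1 (limma adjusted p from 0.46 to 1). None of the 5 had an unadjusted p under 0.05, beside 16.3% of all probe sets, and 0.0528% of probe sets were called. The 95% intervals of the 5 changes lay within -0.60 to 0.36. WT_D1 against WT_D0 likewise gave changes of -0.04 for PSBY to 0.29 for PSAE-1, with 0 of 5 genes under an unadjusted p of 0.05. There limma called 0 of 22746 probe sets (0%), while 1693 had an unadjusted p under 0.05. In WT_D1 and WT_D0, PSAE-1 had a larger coefficient of variation than the other 4 genes, at 1383, 1658 and 1988 units in WT_D1 and 995.1, 1643 and 1499.8 units in WT_D0.

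In darkness all 5 genes had higher means in pif3 than in wild type at both times, by differences that were small, and 1 of the 5 passed the test. PSAN was the gene called, with a log2 change of 0.31 as the mean of D0 and D1 (SE 0.07, adjusted p = 0.048), where 1.78% of probe sets were called in either direction and 1.13% higher. Without adjustment 4 of the 5 had a p under 0.05, as did 15% of all probe sets, and the median change of the 5 was 0.33, beside 0.00 over all probe sets.

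PSAN had 1033, 1216 and 1191 units in pif3_D0, against 867.2, 1009.6 and 938.5 units in WT_D0. It had 1310.3, 1199 and 1214 units in pif3_D1, against 1020.15, 896.9 and 1022 units in WT_D1. The groups did not overlap at either time. This call was lost with any 1 of the 12 arrays left out, with adjusted p from 0.051 to 0.12, while the change stayed within 0.28 to 0.35. It was also lost without WT_D0 replicate 1 and WT_D1 replicate 2 together (0.25, adjusted p = 0.2), the arrays of these wild-type groups with a low 25S rRNA signal. That signal was high in all pif3 arrays, and with it as a covariate the change of PSAN was 0.31 with an adjusted p of 0.094, so that the call was lost at an unmoved size of change. PAP85 had a log2 change of -0.84 in the pif3 mean (adjusted p = 0.06), and its part was not tested.

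The photosystem II genes lay near the threshold. PSBY had 2048, 1509 and 1547 units in pif3_D0, against 1183, 1158 and 1551 units in WT_D0. It was at 1796, 1440.6 and 1988 units in pif3_D1, against 1202, 1224 and 1329 units in WT_D1. Only the D1 groups stood apart, and the mean log2 change was 0.42 (95% interval 0.17 to 0.67, adjusted p = 0.082). PSBW had 2183, 1788 and 1625 units in pif3_D0, against 1358, 1674 and 1876 units in WT_D0, which overlapped. At D1 it had 2533, 2444 and 2430.15 units in pif3, against 1736, 1763 and 1823 units in wild type, which did not. Its mean log2 change was 0.33 (interval 0.16 to 0.51, adjusted p = 0.055). Among the other fits, PSBW was called in 5 and PSBY in 3 of 22. Without WT_D0 replicate 3 the adjusted p was 0.028 for PSBW and 0.047 for PSBY, and without pif3_D0 replicate 3 it was 0.0499 for PSBW.

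PSAE-1 had 1402, 2020.45 and 1507 units in pif3_D0, against 995.1, 1643 and 1499.8 units in WT_D0. In pif3_D1 it was at 2278, 2235 and 2079 units, above the WT_D1 arrays given before. The mean log2 change was 0.33 (interval 0.03 to 0.63, adjusted p = 0.27). ATPC1 had the smallest difference, 0.12 (interval -0.01 to 0.25, adjusted p = 0.39). Its values were 1719.6, 1883 and 1684 units in pif3_D0, against 1343, 1677 and 1621 units in WT_D0. At D1 the pif3 arrays, at 1693, 1609 and 1629.6 units, overlapped the wild-type arrays, whose highest was 1691 units.

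Neither time alone gave a call among the 5 genes. At D0 limma's adjusted p ran from 0.27 to 0.66, and 0.295% of probe sets were called. An unadjusted p under 0.05 was found for 3 of 5 genes and for 12% of all probe sets. At D1 the adjusted p ran from 0.26 to 1, and 0.0396% of probe sets were called, with an unadjusted p under 0.05 for 3 of 5 genes and 7.51% of all probe sets. All pif3 arrays were above all wild-type arrays for 2 of 5 genes at D0 and 4 of 5 at D1, and for 7.17% and 7.47% of all probe sets. The pif3 differences at D1 and D0 were not shown to differ for any of the 5 (difference from -0.14 for ATPC1 to 0.28 for PSBW, limma adjusted p = 1 for each, 0 of 5 with an unadjusted p under 0.05). For that contrast 0 of 22746 probe sets were called and 857 had an unadjusted p under 0.05.

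The red light change at 1 h and the pif3 change at D1 share the WT_D1 arrays, so they are given side by side only. The log2 change was 0.50 at red 1 h and 0.47 in pif3 for PSBW, 0.68 and 0.46 for PSBY, 0.28 and 0.34 for PSAN, 0.17 and 0.40 for PSAE-1, and 0.21 and 0.05 for ATPC1. WT_R1 against pif3_D1 directly gave changes of -0.24 for PSAE-1 to 0.22 for PSBY. By limma 0 of 5 were called and 0 of 5 had an unadjusted p under 0.05, beside 6.11% and 17% of all probe sets. The 95% interval of the difference was -0.66 to 0.19 for PSAE-1, -0.29 to 0.16 for PSAN, -0.22 to 0.27 for PSBW, -0.13 to 0.58 for PSBY and -0.02 to 0.35 for ATPC1.

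**Figure D3:**
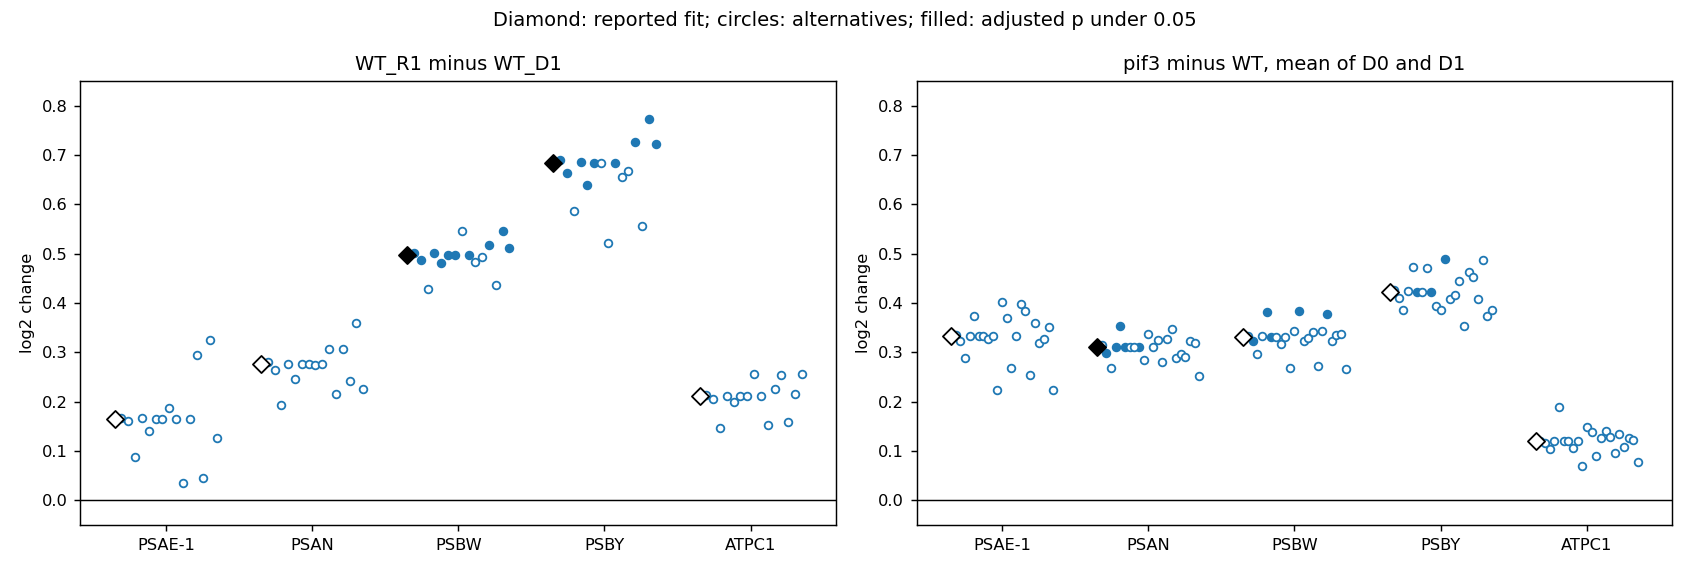
Log2 change of each gene in the reported fit (diamonds) and in each alternative (circles), for WT_R1 minus WT_D1 and for pif3 minus wild type as the mean of D0 and D1; filled symbols passed an adjusted p of 0.05. Every point lies above 0, the filled ones being those of PSBW and PSBY at 1 h and of PSAN, PSBW and PSBY in pif3.

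Other nuclear genes of the same chain were few among the named probe sets, at 4 of 36 listed. At 18 h 3 were called higher and 1 lower, with a median of 0.62, where 34.4% of all probe sets were called and 14.1% called higher. PSB27, a photosystem II assembly factor, rose by 1.22 on the log2 scale (adjusted p = 7.8e-07). PETM, a small subunit of the cytochrome b6f complex, rose by 0.75, and PGRL1B, a factor of cyclic electron flow, by 0.48. ATPC2, the paralogue of ATPC1, fell by 0.51 (SE 0.15, adjusted p = 0.016), with 69.37 ± 7.1 units in WT_R18 against 105.9 ± 19.2 units in WT_D18 (SD, n = 3 each). The gamma subunit genes ATPC1 and ATPC2 thus changed in opposite directions at 18 h. By limma 0 of these 4 were called at 1 h and 2 had an unadjusted p under 0.05, beside 4.94% and 14.9% of all probe sets. The smallest adjusted p was 0.24 for PGRL1B, and PSB27 had the largest change, 0.27. In the pif3 mean 0 of 4 were called and 1 had an unadjusted p under 0.05, beside 1.78% and 15% of all probe sets. The changes were 0.07 to 0.25. The measured antenna genes, 3 of 20, were LHCB4.1, LHCB4.2 and LHCB4.3, which rose by 1.12, 1.33 and 1.53 at 18 h and were all called. At 1 h LHCB4.2 rose by 0.42 (adjusted p = 0.0031) and LHCB4.3 by 0.53 (adjusted p = 0.022), while LHCB4.1 was at 0.04 and not called. Their pif3 means differed in sign, at 0.38, 0.44 and -0.10, and the first and second of these were called.

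The partner subunits made in the plastid all had a probe set, 32 of 32. Those of atpI and petD were dim, with means of 36.49 and 41.17 units, below the 50 used to filter dim probe sets. The median log2 change of the 32 at 18 h was 0.16, beside 1.95 for the nuclear members. Of them 8 were higher, 2 were lower and 22 were not called, so that 31.2% were called, near the 34.4% of all probe sets. All 8 that were called higher belong to photosystem II, which had 15 measured members with a median of 0.50. Among them psbD, for the D2 reaction centre protein, rose by 1.19, psbA, for the D1 protein, by 1.14, and psbT by 1.07. Of photosystem I, 0 of 5 were called higher, and psaI, a small subunit, was called lower, at -0.73. The change of psaA was 0.82 and not called (adjusted p = 0.15). By limma 0 of the 6 plastid ATP synthase genes were called and 0 had an unadjusted p under 0.05, and their median was 0.06 beside 1.56 for ATPC1. petN of the cytochrome b6f complex fell by 1.35 (SE 0.43), with a mean of 41.21 units in WT_R18 against 130.4 units in WT_D18. At 1 h and in the pif3 mean 0 of 32 were called by limma, with medians of -0.09 and 0.18. An unadjusted p under 0.05 was reached by 0 of 32 at 1 h and by 11 of 32 in the pif3 mean, or 34.4%, beside 14.9% and 15% of all probe sets. For pif3 at D0 alone it was reached by 16 of 32, with a median of 0.34, beside 12% of all probe sets. Of the 32, 1 was called there, beside 0.295%. For pif3 at D1 an unadjusted p under 0.05 was reached by 0 of 32, with a median of 0.04, beside 7.51%. Between the wild-type groups WT_D1 and WT_D0 it was reached by 8 of 32, with a median of 0.29, beside 7.44%. The summed signal of the 32 was lowest of all arrays in WT_D0 replicate 1, at 49337 units, and its part in the D0 difference was not tested. Plastid transcripts mostly lack long poly(A) tails, and how far the labelling captured them was not tested.

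**Figure D4:**
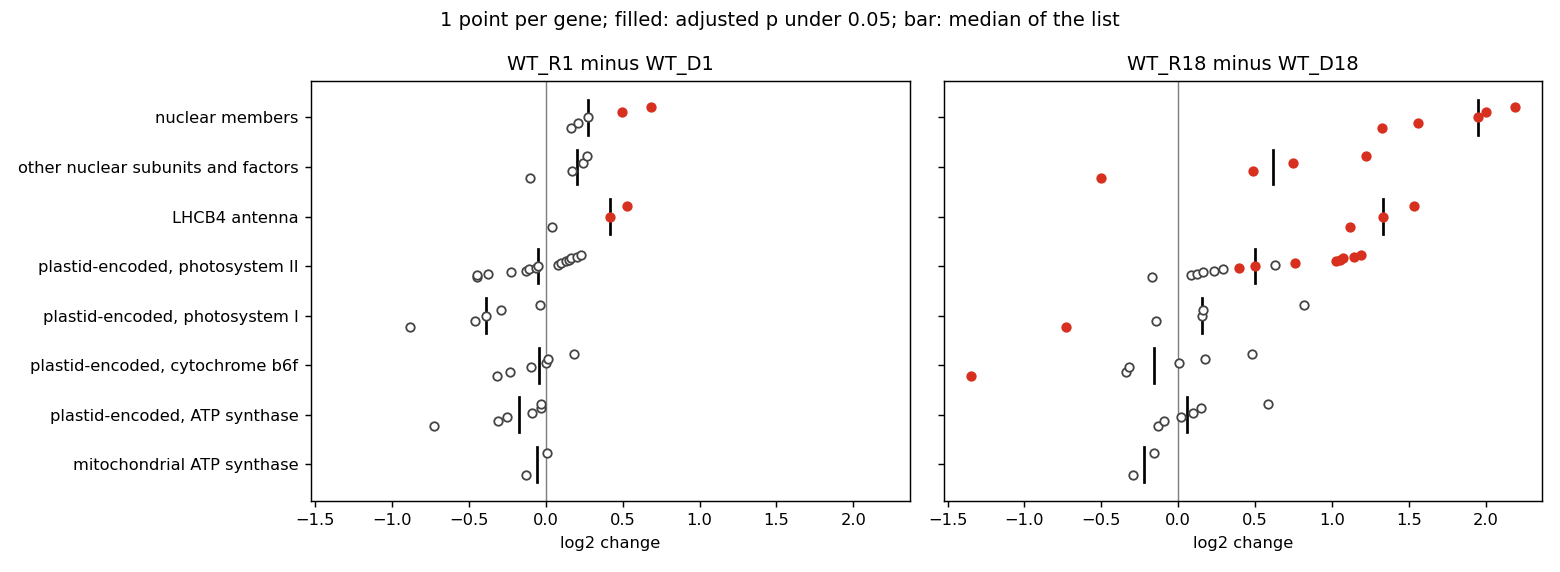
Log2 change of each measured gene (1 point each) by list, for red light against darkness at 1 h and 18 h; filled points passed an adjusted p of 0.05 and bars are list medians. At 18 h the nuclear members (median 1.95) lie right of most plastid-encoded genes (median 0.16), of which 8 filled points of photosystem II are above 0.

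The mitochondrial ATP synthase served as a contrast to ATPC1, with 2 of 9 listed nuclear genes measured. The genes of its delta prime subunit (AT5G47030) and epsilon subunit (AT1G51650) had log2 changes of -0.16 and -0.29 at 18 h, and neither was called (adjusted p = 0.3 and 0.16). At 1 h they were at 0.01 and -0.13, and in the pif3 mean at -0.03 and 0.08. In WT_R18 against WT_R1 the epsilon gene was called lower, at -0.58 (adjusted p = 0.009). The delta prime gene was at -0.30 there and not called (adjusted p = 0.052). In WT_D18 against WT_D1 the change was -0.42 for the epsilon gene and -0.13 for the delta prime gene, and neither was called.

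The 5 genes followed each other across the 21 arrays, with Pearson r of 0.91 to 0.98 in the 10 pairs. Without the 3 WT_R18 arrays r was 0.52 for PSAE-1 and PSBY to 0.80 for PSBW and PSBY. As deviations from group means r ran from 0.27 for PSAE-1 and PSBY to 0.80 for PSAE-1 and ATPC1, with 0.72 for PSBW and PSBY. These are descriptions, since values of 1 array share their RNA sample, labelling and normalization.

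Of 6664 other named genes with a mean intensity of at least 50, the 5 most like the mean profile of the members over 21 arrays were AT1G52220, CaS, HEME1, AT2G34460 and AT2G42220. Their r was 0.98 to 0.99, and 0.86 to 0.90 without WT_R18. AT1G52220 is listed as CURT1C, a protein of thylakoid curvature, CaS encodes a thylakoid calcium sensing protein and HEME1 a uroporphyrinogen decarboxylase of tetrapyrrole synthesis. At 18 h AT1G52220 had a log2 change of 2.11, close to PSAE-1 and PSAN, and CaS one of 3.6. PSAE-1 was most like AT1G52220 and HEME1, PSAN like AT5G48490 and AT1G18060, and PSBW like AT3G47070 and AT2G34460. PSBY was most like AT5G41050 and AT2G34460, and ATPC1 like AT1G18060 and FUG1, a chloroplast translation initiation factor gene. The r of these 10 matches was lowest for PSBW, at 0.95 for both genes, and highest for ATPC1 with AT1G18060, at 0.99.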

How the data were processed

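Total RNA of seedlings was column-purified and hybridised as biotin-labelled target, per the labels' protocols. The deposited values are linear intensities, 1 per probe set and array, as the values themselves show; how the authors summarised and scaled probes is not given in the sources used here. On each array 9.78% to 12.1% of values were negative. Quantile normalization was applied to the linear values, controls included; 64 controls were then set aside, values below 0 were set to 0, 16 was added and log2 was taken. A model with a mean for each of the 7 groups was fitted to 21 arrays with limma (version 3.58.1, R 4.3.3), and 11 contrasts were tested with Benjamini-Hochberg adjustment over 22746 probe sets. The steps were tested on simulated data for the 18 h contrast, with a true log2 change of 1 in 200 of 22746 probe sets. Of these 91% were recovered, and 5.21% of calls were false. That test gives no measure of how well smaller changes are found. Gene names came from GEO's annotation of the array, and symbols from a TAIR10.1 table that served for names alone: 13513 had 1 gene, 503 several and 8730 were not listed. Genes with several probe sets were represented by the brightest, and plastid genes were matched by symbol.

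The members and lists were chosen with earlier results of these data known. Named genes were the 5 members, at most 4 genes of each list in a comparison and those most like the members by r. Whether equal replicate numbers pair arrays was checked: of 63 pairs across groups, deviations correlated above 0.1 in 11 (range -0.25 to 0.48), so they were not taken as pairs. Arrays of 1 group correlated at r of 0.977 to 0.992. The number of arrays limits the precision. Alternatives were the offset, the scaling, a filter on dim probe sets, the groups in the fit, a 25S rRNA covariate, a replicate block and leaving out arrays. No sequences are printed, and the promoter motifs planned were not analysed here.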

Additional observations from a re-analysis of the deposited data

Results flagged for a closer look

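The log2 change with red light differed between 18 h and 1 h for each of the 5 genes, by the test of the difference itself in limma. The difference, 18 h minus 1 h, was 1.91 for PSAN, 1.84 for PSAE-1, 1.35 for ATPC1, 1.26 for PSBY and 0.83 for PSBW (5 of 5 called). The 2 changes come from different arrays. In WT_R18 against WT_R1 directly, 5 of 5 were called higher, beside 26.3% of probe sets called in either direction and 11.9% called higher.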

How the results depend on the processing

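Of 920 recomputed log2 changes of the 5 genes, 858 kept direction and side of the threshold, and 0 of the 24 that changed sign belonged to a called change. With no scaling between arrays 0 genes were called at red 1 h, 3 in the difference between 18 h and 1 h and 0 in the pif3 mean. Probe sets called were then 1997 at red 18 h, 165 at 1 h, 639 in the difference, 1164 for WT_R18 against WT_R1, 0 for the later dark time, 4, 1 and 2 for pif3 (mean, D0, D1) and 173 for WT_R1 against pif3_D1, of fits that gave 7828, 1124, 4265, 5972, 12, 406, 67, 9 and 1389. Calls were 75.8% higher at 18 h and 80% at 1 h without scaling, against 41% and 56.3%, and the median of all probe sets moved by up to 0.24 (pif3 D1 against D0). Log2 changes of uncalled genes turned to -0.11 for PSBW and -0.14 for PSBY (later dark time), 0.18 for PSBY (D1 against D0), 0.18 for ATPC1 (pif3 D1 against D0), and -0.16 for PSBW and -0.0472 for ATPC1 (WT_R1 against pif3_D1). Median scaling gave 2 genes in the pif3 mean, 109 probe sets at pif3_D0 and -0.0038 for PSBW in WT_R1 against pif3_D1. An offset of 1 gave 0 genes in the pif3 mean and 4 probe sets for D1 against D0; an offset of 64 gave 2 genes. Without dim probe sets 3 genes were called in the pif3 mean and 33 probe sets for the later dark time. With only the groups compared, 1 gene and 728 probe sets were called at red 1 h, 0 genes and 229 probe sets in the pif3 mean, 0 and 2 probe sets at pif3_D0 and pif3_D1, 0 for the later dark time and 828 for WT_R1 against pif3_D1. The 25S rRNA covariate left 0 genes at red 1 h and in the pif3 mean, and 619, 2165, 2945, 1, 242, 5 and 496 probe sets for red 1 h, the difference, WT_R18 against WT_R1, the later dark time, the pif3 mean, pif3_D1 and WT_R1 against pif3_D1, and -0.0242 for PSBY in the later dark time. Leaving out the low-25S wild-type arrays WT_D0 replicate 1 and WT_D1 replicate 2, chosen after seeing the data, gave 0 genes and 188 probe sets in the pif3 mean.

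With the replicate block 2 genes were called in the pif3 mean, PSAN and PSBY (adjusted p = 0.033), and 4 probe sets for the later dark time, and no other count of genes changed. With 1 array left out, 0 to 2 genes were called at red 1 h and 0 to 2 in the pif3 mean. Probe sets called then ran from 179 to 559 in the pif3 mean, 18 to 258 at pif3_D0, 2 to 15 at pif3_D1, 0 to 8 for pif3 D1 against D0, 0 to 8 for the later dark time and 0 to 112 for D1 against D0. Ranges of uncalled changes that crossed 0 were -0.11 to 0.0942 for PSBY and -0.0514 to 0.11 for ATPC1 (D1 against D0), -0.11 to 0.0428 for PSAN, -0.0109 to 0.14 for PSBW and -0.12 to 0.14 for PSBY (later dark time), -0.0026 to 0.35 for PSAE-1, -0.018 to 0.11 for PSAN and -0.0591 to 0.21 for PSBY (pif3 D1 against D0), -0.0109 to 0.0907 for ATPC1 (pif3_D1), and -0.11 to 0.0218 for PSAN and -0.0363 to 0.0718 for PSBW (WT_R1 against pif3_D1). The cause was not tested for any of these.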
